A study of Mus musculus with 27 samples.

Results

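Mouse bone marrow-derived macrophages (BMDM) were searched for genes whose mRNA was close to its naïve level 4 h after a first dose of a toll-like receptor (TLR) ligand and was raised after a second dose of the same ligand, whichever of 4 ligands was used. The genes were chosen by their measured group means: a microarray probe had to lie at least 1 log2 unit (2-fold) above the naïve mean in the re-stimulated groups of all 4 ligands and within 1.5-fold of it in all 4 acute groups. It also needed a gene symbol and, in each re-stimulated group, 2 or more arrays with a signal flagged as well above background. It found 16 probes of 15 genes, of 32652 probes with a gene symbol (23709 genes) and 55681 probes in all. Of 719 probes with a symbol that rose by at least 1 in all 4 re-stimulated groups and were detected there, these 16 were the ones within the limit in all 4 acute groups. The smallest rise inside the limit was 1.02 (Acss2) and the closest outside were 0.97 (Pex16 and Hps1) and 1.00 (Suv39h2, just under the limit); the largest acute difference inside was 0.57 (Pdcd1lg2) and the closest outside 0.59 (Slamf6). The genes are Bst1, Gm5150, Wnk2, Mpp7, Cd1d1 (2 probes), Slc39a4, Pdcd1lg2, S1pr4, 4933421O10Rik, Aox1, Fgr, Arv1, Acss2, Ccdc32 and C230052I12Rik, which RefSeq now names Faap24.

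The macrophages were grown for 7 days in L929 conditioned medium from the marrow of female C57BL/6 mice of 6 to 8 weeks. The 9 groups, planned with 3 arrays each, were naïve cells given no ligand, acute cells given a ligand once for 4 h, and re-stimulated cells given it for 24 h, washed, and given it again for 4 h. The ligands were LPS at 100 ng/ml (for TLR4), Pam3CSK4 at 100 ng/ml (TLR2), Poly(I:C) at 10 µg/ml (TLR3) and CpG DNA (TLR9), whose dose is 100 µM in the sample labels and 1 µM in the study's methods. The cells were grown from whole marrow and were not sorted. By the methods, non-adherent cells were removed during differentiation. Purity was assessed by flow cytometry, and the great majority of cells were typically positive for a macrophage surface marker. The methods give no purity for the separate groups. They state that each culture pooled bone marrow of several mice, although another passage speaks of different mice. No group received 24 h of ligand without the second dose, and no naïve group kept in culture for the added time is described. The effects of the second dose, of the longer exposure and of the longer time in culture therefore cannot be told apart.

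TLRs are sensors of microbial molecules that switch on inflammatory genes through NF-κB and interferon regulatory factors. A macrophage that meets the same ligand again responds in an altered way known as tolerance: many cytokine genes respond less, while others keep or gain expression. The member genes are of several kinds. They include genes of surface receptors and ligands, kinases and a scaffold, a zinc transporter, an aldehyde oxidase, an acetate enzyme and a protein of sterol transport. 4933421O10Rik is annotated with a noncoding RefSeq entry. In such bulk samples, a change in the number of cells of a kind and a change of mRNA per cell cannot be told apart.

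Before the results, 1 naïve array needs naming. On naïve replicate 3, 74.9% of probes were well above background, against 43.1% to 55.0% on the other kept arrays, and it was the lowest naïve array for 6 member probes and the highest for 8. The naïve and re-stimulated arrays lay on 3 slides, 1 for each replicate number, and each group had the same place on every slide, so place and group cannot be told apart. The acute LPS arrays lay on 3 other slides scanned on other days, so for LPS the slide and the acute condition cannot be told apart. A single array each of the LPS re-stimulated and Pam3CSK4 acute groups failed the authors' quality control, which left 25 arrays and 2 in each of those groups. The cells carried macrophage markers: the summed level of 10 such genes lay between 19.22 and 19.81 on the log2 scale on all naïve and re-stimulated arrays.

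Promoters are shown for the 4 members with the largest mean rise that have an entry in the RefSeq table of build GRCm38.p6. The rule brought the members together by their group means, and whether they share a control at the promoter was not tested. Each run holds the 250 bases before the start, 5′ to 3′ on the gene's strand, and capitals mark matches to the short patterns listed after them. They are Gm5150 at chr3:16006333-16006582 (minus strand), Wnk2 at chr13:49148329-49148578 (minus strand), Pdcd1lg2 at chr19:29410669-29410918 (plus strand) and S1pr4 at chr10:81500138-81500387 (minus strand).
Gm5150: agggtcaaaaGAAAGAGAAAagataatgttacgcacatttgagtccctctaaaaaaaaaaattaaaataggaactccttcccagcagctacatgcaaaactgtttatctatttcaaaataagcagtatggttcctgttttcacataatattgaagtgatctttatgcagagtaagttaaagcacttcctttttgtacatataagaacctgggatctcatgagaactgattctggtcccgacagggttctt
Wnk2: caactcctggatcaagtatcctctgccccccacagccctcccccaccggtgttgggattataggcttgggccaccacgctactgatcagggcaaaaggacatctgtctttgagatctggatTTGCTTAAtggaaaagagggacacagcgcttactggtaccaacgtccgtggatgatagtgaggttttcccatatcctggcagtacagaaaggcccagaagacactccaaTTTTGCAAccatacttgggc
Pdcd1lg2: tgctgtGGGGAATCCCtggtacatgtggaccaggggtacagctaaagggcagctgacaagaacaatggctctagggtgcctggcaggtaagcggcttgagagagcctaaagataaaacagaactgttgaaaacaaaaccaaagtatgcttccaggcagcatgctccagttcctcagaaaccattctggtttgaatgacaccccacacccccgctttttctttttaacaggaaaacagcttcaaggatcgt
S1pr4: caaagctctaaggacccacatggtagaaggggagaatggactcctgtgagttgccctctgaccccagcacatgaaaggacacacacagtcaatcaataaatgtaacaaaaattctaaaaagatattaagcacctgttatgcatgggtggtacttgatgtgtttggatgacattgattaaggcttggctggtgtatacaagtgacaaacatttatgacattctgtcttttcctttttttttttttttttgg

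The patterns were searched on both strands in the 10 member promoters in the table and in all 32851 promoters. The capitals in Gm5150 are GAAA and GAAA with 2 bases between, the core of the interferon-stimulated response element, which 1 of 10 member promoters and 2.98% of all promoters hold. Those in Wnk2 are a pair of matches to TTGCNNAA, a C/EBP-like pattern held by 1 of 10 member promoters and 9.56% of all. The match in Pdcd1lg2 is GGG and CC with 5 bases between, an NF-κB-like pattern, read on both strands at the same place and held by 5 of 10 member promoters (Pdcd1lg2, 4933421O10Rik, Fgr, Arv1 and Acss2) and 45.8% of all. S1pr4 holds none of the 7 patterns in this window. The AP-1 pattern TGANTCA was found in Aox1 (6.75% of all promoters) and the ETS pattern GAGGAAG in C230052I12Rik (10.6%). The STAT pattern TTCNNNGAA (7.02% of all) and the E-box CACGTG (6.02%) were found in 0 of 10. The share of member promoters with the NF-κB-like pattern is close to the share in all promoters.

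Levels below are log2 intensities after background correction and quantile normalization, listed by replicate number. Since the rule chose the genes by their difference from naïve cells, levels against naïve and acute cells are a description and carry no test. Over the 16 probes the mean rise of the 4 re-stimulated groups lay between 1.17 and 2.09 (2.25-fold to 4.25-fold, median 1.54), and group means of acute cells lay between -0.54 and 0.58 from the naïve mean.

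**Figure D1:**
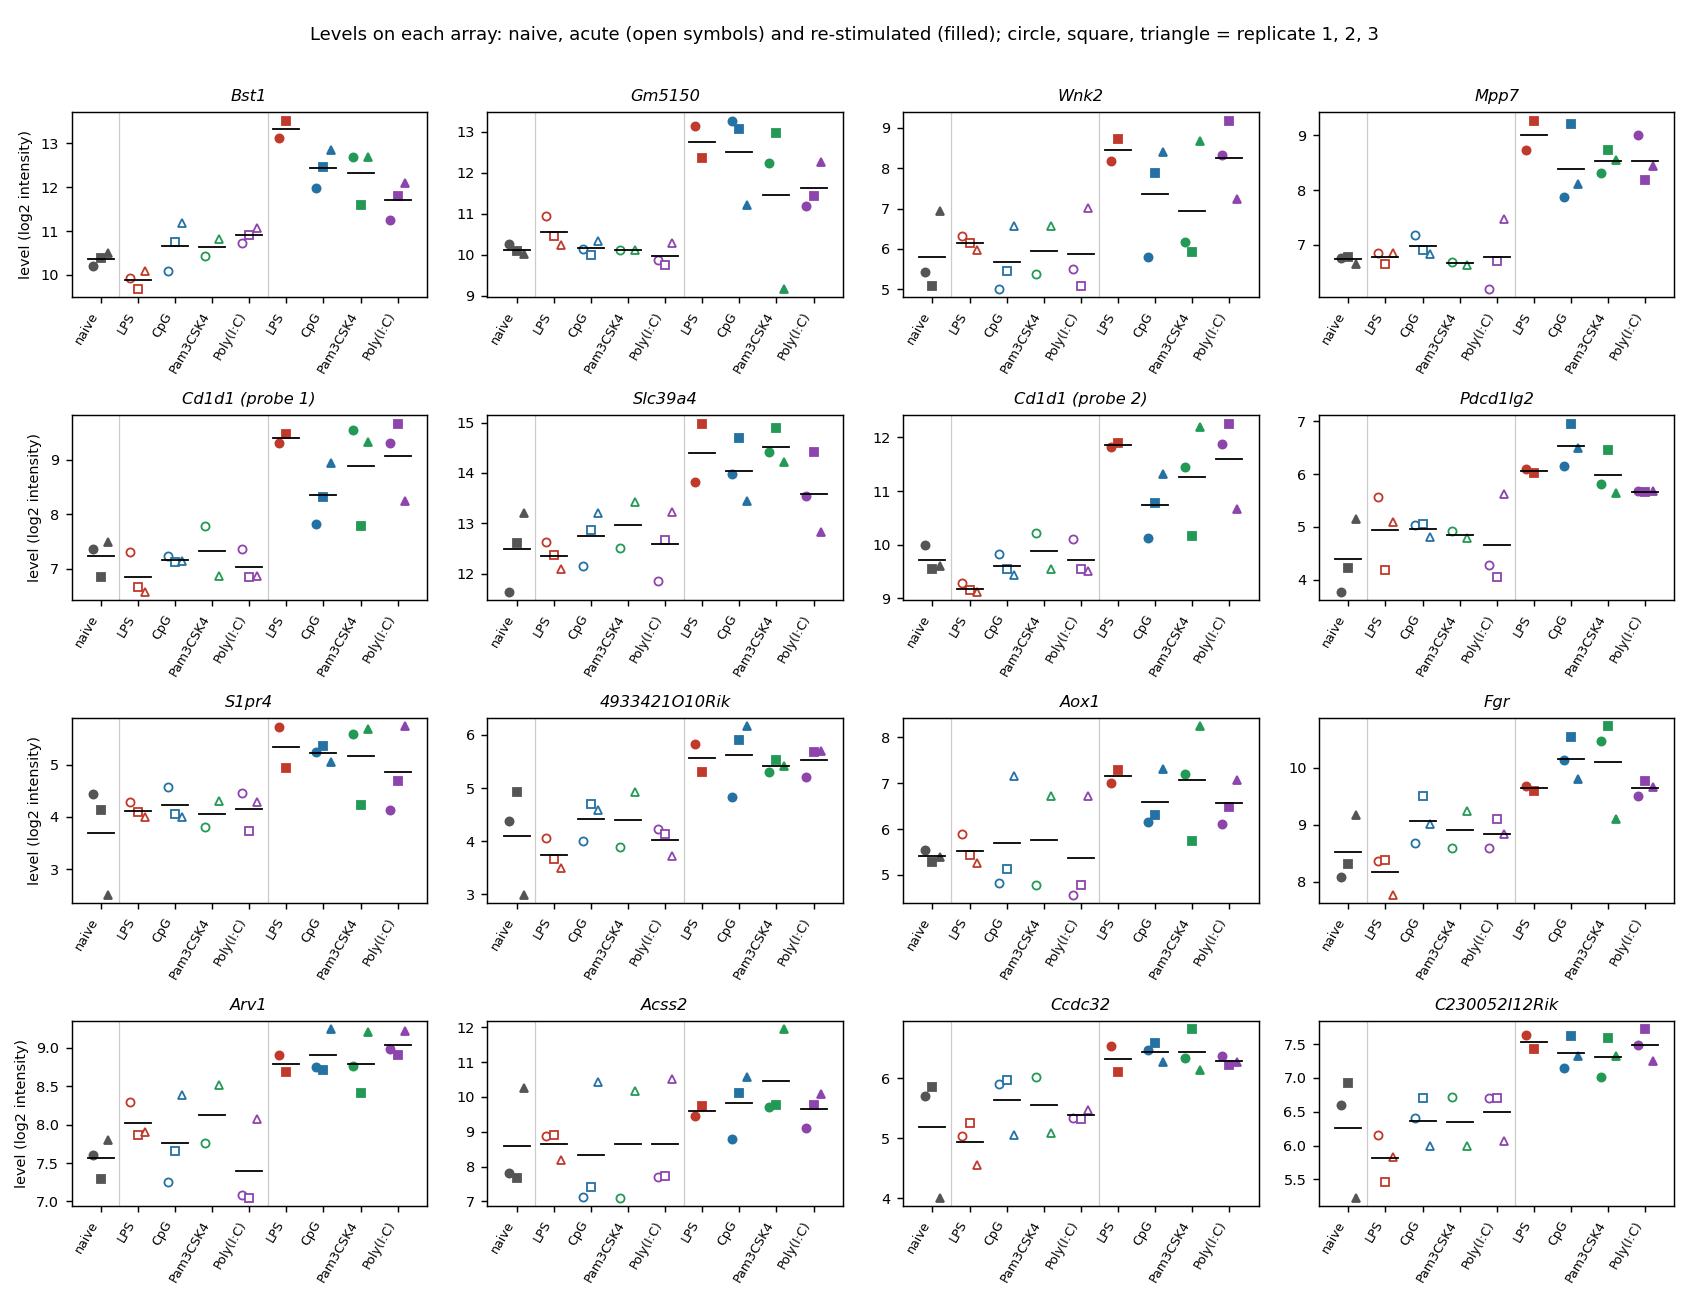
Level of the 16 member probes (log2 intensity, vertical axis) on each of 25 arrays by group, with open symbols for acute and filled symbols for naïve and re-stimulated cells, circle, square and triangle for replicates 1, 2 and 3, and a bar at each group mean. Bst1 and Mpp7 show 11 re-stimulated arrays above every naïve and acute array, while for Acss2 the third naïve array and the third CpG, Pam3CSK4 and Poly(I:C) acute arrays sit among the re-stimulated ones.

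Among the surface molecules, Bst1 had the largest mean rise (2.09). It encodes CD157, a membrane-anchored enzyme that cleaves NAD and is also known as bone marrow stromal antigen 1. Its probe (mm9 chr5:44233465-44233524) read 10.21, 10.38 and 10.50 in naïve cells. After re-stimulation it read 13.12 and 13.52 with LPS, 11.98, 12.47 and 12.86 with CpG, 12.68, 11.59 and 12.69 with Pam3CSK4, and 11.26, 11.79 and 12.10 with Poly(I:C). All 11 values lay above the highest acute array (11.18), and the groups differed in size of rise, from 7.78-fold with LPS to 2.56-fold with Poly(I:C). In acute cells its mean differed from naïve by -0.47 with LPS and by 0.54 with Poly(I:C).

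Cd1d1 encodes a molecule that presents lipid antigens to natural killer T cells. Its first probe read 7.36, 6.86 and 7.49 in naïve cells, and 9.30 and 9.47 after LPS re-stimulation. With CpG it read 7.82, 8.32 and 8.93, with Pam3CSK4 9.54, 7.79 and 9.32, and with Poly(I:C) 9.31, 9.66 and 8.24. The 2 LPS arrays lay close together, and the 3 arrays of each other ligand spread over more than 1 log2 unit. LPS lacks replicate 3, so these spreads cannot be compared directly. On replicates 1 and 2 alone, only the Pam3CSK4 arrays lay more than 1 log2 unit apart. The second probe, 517 bases away in the same transcript, followed the first over the 25 arrays (r = 0.98, a description of arrays that share slides) and its mean rise was 1.65.

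Pdcd1lg2 encodes PD-L2, a ligand of the T cell inhibitory receptor PD-1. It read 3.77, 4.23 and 5.15 in naïve cells, and 6.16, 6.96 and 6.49 after CpG re-stimulation, its highest group. LPS re-stimulated cells read 6.10 and 6.02, Pam3CSK4 cells 5.81, 6.46 and 5.65, and Poly(I:C) cells 5.68, 5.66 and 5.68. All 11 lay above the highest acute array, which read 5.63, the lowest of them at 5.65. Its acute CpG mean lay 0.58 above naïve, next to the limit of the rule.

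S1pr4, a receptor for sphingosine 1-phosphate found on blood and lymphoid cells, was near background before re-stimulation. It was well above background on 1 of 3 naïve arrays (4.43, 4.14 and 2.51), on 5 of 11 acute arrays and on 9 of 11 re-stimulated arrays. It read 5.72 and 4.94 with LPS, 5.25, 5.35 and 5.05 with CpG, 5.58, 4.22 and 5.68 with Pam3CSK4, and 4.14, 4.69 and 5.73 with Poly(I:C). The Pam3CSK4 and Poly(I:C) groups overlap the naïve arrays, and without naïve replicate 3 the mean rise falls from 1.44 to 0.85.

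Gm5150, a gene model with no role given here, had uneven replicates. It read 10.27, 10.09 and 10.01 in naïve cells. Re-stimulated arrays read 13.13 and 12.35 with LPS, 13.27, 13.06 and 11.21 with CpG, 12.25, 12.97 and 9.17 with Pam3CSK4, and 11.19, 11.44 and 12.27 with Poly(I:C). The third Pam3CSK4 array lay below all naïve arrays while the others read 12.25 and 12.97, above all of them (group SD 2.02). An unnamed probe 43 bases away showed the same pattern (r = 0.99 over 25 arrays).

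**Figure D2:**
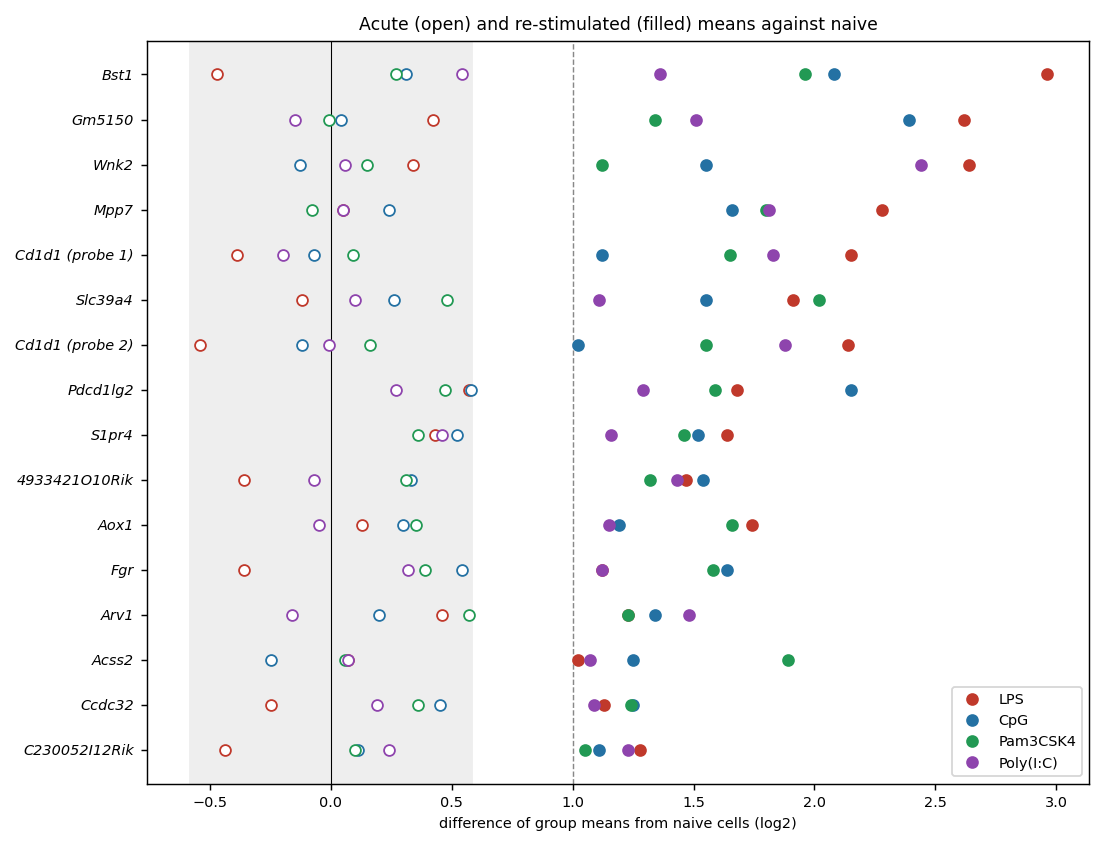
Difference of group means from naïve cells (log2, horizontal axis) for each member probe, open circles for acute and filled circles for re-stimulated cells, coloured by ligand, with the acute limit of 1.5-fold shaded and the limit of 1 dashed. By the rule all open circles lie in the shaded band and all filled ones past the dashed line.

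The kinases and scaffold came next. Mpp7, a scaffold protein of cell junctions and polarity, had the tightest naïve values (6.76, 6.78 and 6.65, SD 0.07). It read 8.74 and 9.27 with LPS, 7.87, 9.20 and 8.11 with CpG, 8.32, 8.74 and 8.55 with Pam3CSK4, and 9.0, 8.18 and 8.44 with Poly(I:C). Every re-stimulated array was above every naïve and acute array, where the highest acute value was 7.47. The 4 rises were alike in size, from 1.66 to 2.28.

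Wnk2, a kinase of the WNK family that controls ion cotransporters, read 5.42, 5.07 and 6.95 in naïve cells. It read 8.17 and 8.72 with LPS, 5.81, 7.88 and 8.41 with CpG, 6.18, 5.93 and 8.68 with Pam3CSK4, and 8.33, 9.18 and 7.24 with Poly(I:C). The CpG and Pam3CSK4 groups overlap the naïve arrays, and 8 of 11 re-stimulated arrays were above the highest naïve one. The third acute arrays of CpG, Pam3CSK4 and Poly(I:C) were high in their groups as well (6.58, 6.56 and 7.01), and that of LPS was not (5.98).

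Fgr, a Src family kinase of myeloid cells, read 8.08, 8.31 and 9.18 in naïve cells. Re-stimulated cells read 9.68 and 9.60 with LPS, 10.14, 10.55 and 9.80 with CpG, 10.47, 10.73 and 9.10 with Pam3CSK4, and 9.50, 9.77 and 9.67 with Poly(I:C). Of 11 re-stimulated arrays, 1 was not above all naïve arrays. Acute CpG cells reached 9.51.

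Of the transporter and enzymes, Slc39a4 encodes ZIP4, a zinc importer. It read 11.64, 12.61 and 13.20 in naïve cells and 13.82 and 14.98 after LPS re-stimulation. With CpG it read 13.98, 14.69 and 13.44, with Pam3CSK4 14.42, 14.89 and 14.21, and with Poly(I:C) 13.54, 14.41 and 12.83. Only the third Poly(I:C) array lay within the naïve range.

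Aox1, an aldehyde oxidase, read 5.54, 5.28 and 5.40 in naïve cells, and 7.01 and 7.28 after LPS. It read 6.15, 6.31 and 7.32 with CpG, 7.21, 5.75 and 8.24 with Pam3CSK4, and 6.11, 6.48 and 7.07 with Poly(I:C). All 11 were above naïve, but 4 of 11 were above the highest acute array, because the third acute arrays of CpG, Pam3CSK4 and Poly(I:C) read 7.15, 6.73 and 6.72. Those 3 arrays lay more than 1 log2 unit above the naïve array of the same slide, which read 5.40, although the group means met the acute limit.

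Arv1, a protein of sterol transport in the endoplasmic reticulum, had a small and even rise of 1.23 to 1.48. It read 7.60, 7.29 and 7.80 in naïve cells, and 8.90 and 8.68 with LPS. It read 8.75, 8.71 and 9.24 with CpG, 8.76, 8.41 and 9.21 with Pam3CSK4, and 8.99, 8.90 and 9.22 with Poly(I:C). All re-stimulated arrays were above all naïve ones.

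The other member genes are given by range. Acss2, the cytosolic enzyme that makes acetyl-CoA from acetate, read 7.82, 7.66 and 10.25 in naïve cells and between 8.80 and 11.94 after re-stimulation, and 2 of 11 re-stimulated arrays were above the highest naïve one. 4933421O10Rik, which the array annotates with a noncoding RefSeq entry, read 4.38, 4.92 and 2.99 and then 4.84 to 6.16. It was well above background on 2 of 3 naïve and 2 of 11 acute arrays. Ccdc32 read 5.70, 5.85 and 4.01 and then 6.10 to 6.81, and C230052I12Rik, whose RefSeq gene Faap24 belongs to the Fanconi anaemia DNA repair complex, read 6.60, 6.93 and 5.23 and then 7.01 to 7.72. These last genes share a naïve replicate 3 that reads lower than the other naïve arrays.

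Every re-stimulated array lay above every naïve array for 15 of 16 probes with LPS, 13 with CpG, 11 with Pam3CSK4 and 13 with Poly(I:C). The rule used this contrast, so the counts are a description; of all 28876 probes tested, 24.0%, 19.3%, 16.7% and 16.2% did so with the 4 ligands in that order. All 11 re-stimulated arrays were above all naïve arrays for 9 of 16 probes, against 6.20% of all probes. Against the acute arrays of the same ligand the counts were lower with Pam3CSK4 and Poly(I:C): every re-stimulated array was above them for 16 of 16 probes with LPS, 13 with CpG, 8 with Pam3CSK4 and 12 with Poly(I:C), where 33.6%, 15.3%, 15.5% and 16.3% of all probes did so. All 11 re-stimulated arrays were above all 11 acute arrays for 6 of 16 probes, against 1.32% of all probes. Against naïve replicates 1 and 2 alone, the counts were 16, 15, 14 and 15 of 16, and the shares of all probes 30.4%, 26.2%, 24.2% and 21.7%.

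Naïve and re-stimulated arrays of 1 replicate number shared a slide, so each re-stimulated array was also set against the naïve array of its own slide. Over the 11 such pairs per probe, 11 of 16 probes were higher in all, against 12.5% of all probes; the rule used these same arrays, so the count is a description. Bst1 (1.05 to 3.14), Mpp7 (1.11 to 2.49) and Arv1 (1.12 to 1.61) were at least 1 higher in all 11 pairs. For that limit no share of all probes was counted. The slides did not show the same picture for every gene. S1pr4, 4933421O10Rik, Ccdc32 and C230052I12Rik were 2.01 to 3.22 higher on the slide of replicate 3. On the slide of replicate 2 the same 4 probes differed by 0.08 to 1.21. Slc39a4, Fgr and Acss2 went the other way, with differences of -0.38 to 1.01, -0.08 to 0.62 and -0.17 to 1.69 on the slide of replicate 3 and 1.29 to 2.45 on that of replicate 2. Without naïve replicate 3, 4 of the 16 probes still met the rule (Gm5150, Mpp7, Aox1 and 1 Cd1d1 probe), and 13 probes met it in all. The mean rise then lay between 0.59 (Ccdc32) and 2.51 (Wnk2).

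**Figure D3:**
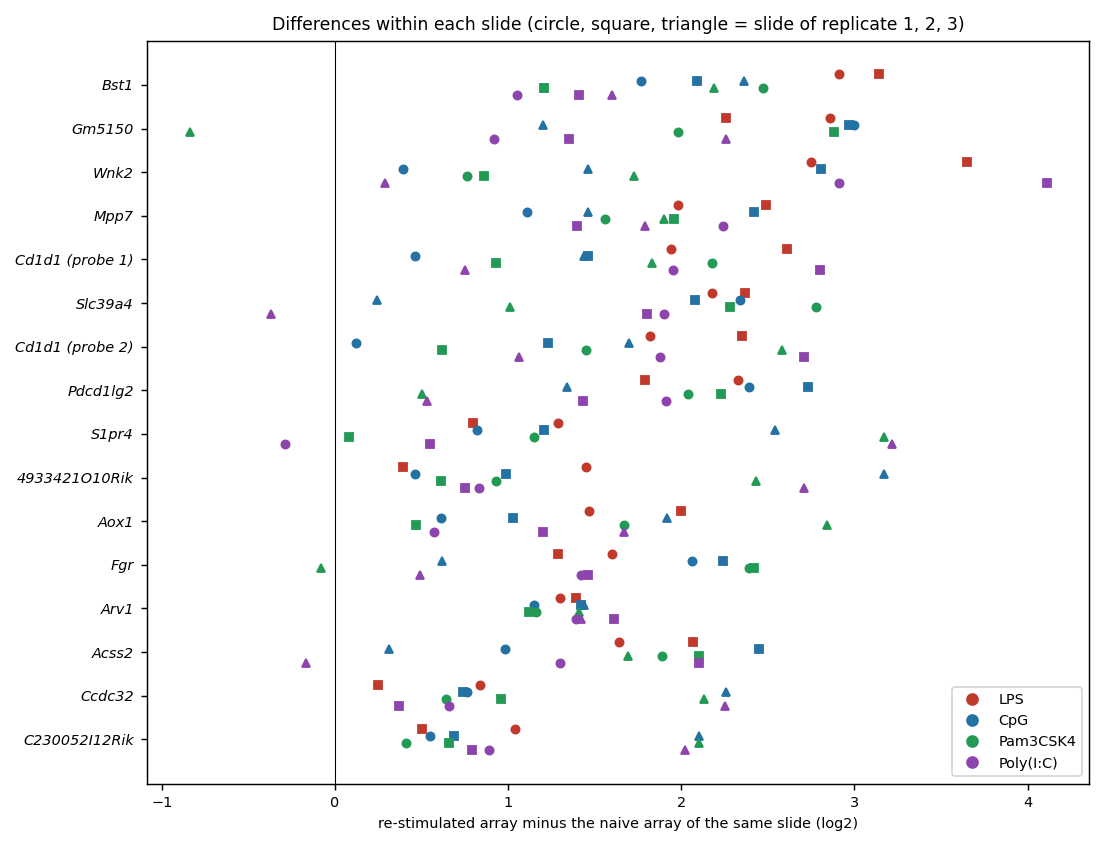
Each re-stimulated array minus the naïve array of its slide (log2, horizontal axis) for the 16 member probes, coloured by ligand, with circle, square and triangle for the slides of replicates 1, 2 and 3. Bst1, Mpp7 and Arv1 lie at or past 1 on every slide; S1pr4, 4933421O10Rik, Ccdc32 and C230052I12Rik are split, with the triangles of replicate 3 past 2.

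A set of 6 genes has another probe on the array that is no member. The other probe of Bst1 followed the member probe (r = 0.96 over 25 arrays), with rises of 3.03, 2.32, 2.31 and 1.54 for LPS, CpG, Pam3CSK4 and Poly(I:C), but its acute means were outside the limit of the rule with LPS, where the difference from naïve was -1.24, and with Poly(I:C), where it was 0.74 (1.67-fold) and all 3 arrays were above every naïve array. The other probes of Pdcd1lg2 (0.97 to 1.35) and Acss2 (0.69 to 2.12) rose with each ligand. Their rise was under the limit of 1 with Poly(I:C), and for Acss2 also with LPS (0.74). Those of Wnk2 and Mpp7 were dim, well above background on 1 of 3 and 0 of 3 naïve arrays. In the same order of ligands, they differed from naïve by 2.04, 0.96, 0.57 and 1.69 for Wnk2. For Mpp7 the differences were 0.95, 0.27, 0.16 and 0.82. The other probe of Ccdc32 did not follow (r = 0.11): it read 11.05, 11.07 and 10.98 in naïve cells and the 4 re-stimulated groups differed from them by -0.71 to -0.43. For Ccdc32 the direction therefore depends on the probe.

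**Figure D4:**
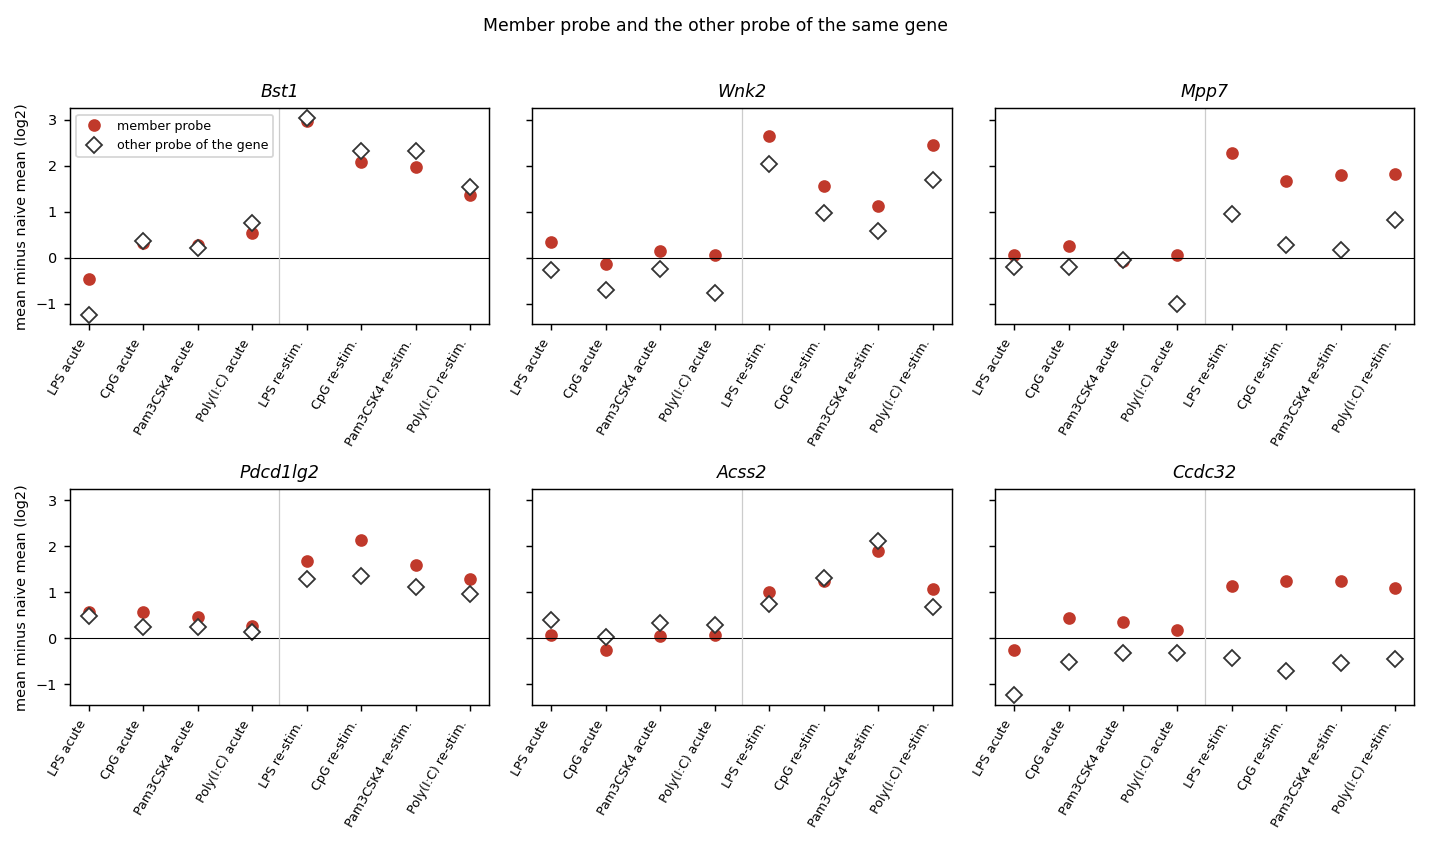
Difference of each group mean from naïve cells (log2, vertical axis) for the member probe (red circles) and the other probe (open diamonds) of 6 genes, in the 4 acute and 4 re-stimulated groups. The probes of Bst1 move together in re-stimulated cells, and those of Ccdc32 lie on opposite sides of 0.

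The rule set no ligand against another, and the differences between re-stimulated groups were tested. The same group means had each to be at least 1 above naïve, so the low side of every ligand was removed by the choice of the genes, and the tests run on values so selected. All 6 pairs of ligands were compared in 1 limma fit of the naïve and re-stimulated arrays, with adjustment over 28876 probes and calls at an adjusted p under 0.05 and at least 1.5-fold. No member passed in any pair: 0 of 16 between LPS and CpG, where 0.00693% of all probes passed, and 0 of 16 between LPS and Pam3CSK4 (0.987%), LPS and Poly(I:C) (0.963%), CpG and Pam3CSK4 (0.242%), CpG and Poly(I:C) (5.59%) and Pam3CSK4 and Poly(I:C) (8.87%). At an unadjusted limma p under 0.05, 1 member passed in each of 4 pairs and 0 in CpG against Pam3CSK4 and Pam3CSK4 against Poly(I:C). Of all 28876 probes, 2699, 3877, 3377, 916, 6108 and 7093 did so, with the pairs in the order just given.

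Bst1 had the best supported difference. Re-stimulated LPS cells read 13.32 ± 0.28 (SD, n = 2) and Poly(I:C) cells 11.72 ± 0.42 (SD, n = 3), a difference of 1.60 (SE 0.37, 95% interval 0.79 to 2.42). Its limma p was 0.00114 and its adjusted p 0.0766, past no threshold. With the replicate number as a block, which is the slide, the difference was 1.77 and the adjusted limma p 0.0452, which is a call. Bst1 also read higher with LPS than with Pam3CSK4 by 1.00 (interval 0.19 to 1.82, adjusted limma p 0.273) and than with CpG by 0.88 (0.07 to 1.70, adjusted limma p 0.507). The 2 LPS arrays were above all 9 arrays of the other re-stimulated groups.

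Pdcd1lg2 read 0.86 higher after CpG than after Poly(I:C) re-stimulation (interval 0.13 to 1.60, adjusted limma p 0.164), with the 3 CpG arrays above the 3 Poly(I:C) arrays. On its other probe these groups overlapped, with 5.99 to 6.97 after CpG and 5.92 to 6.18 after Poly(I:C). The intervals show how far the comparisons reach. For Arv1 they were narrow, from -0.58 to 0.57 between LPS and Pam3CSK4 and from -0.76 to 0.27 between Pam3CSK4 and Poly(I:C). For Wnk2 they were wide, -0.60 to 3.63 between LPS and Pam3CSK4, so a large difference there would not have been detectable. A missed threshold does not show that the ligands act alike on these genes.

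**Figure D5:**
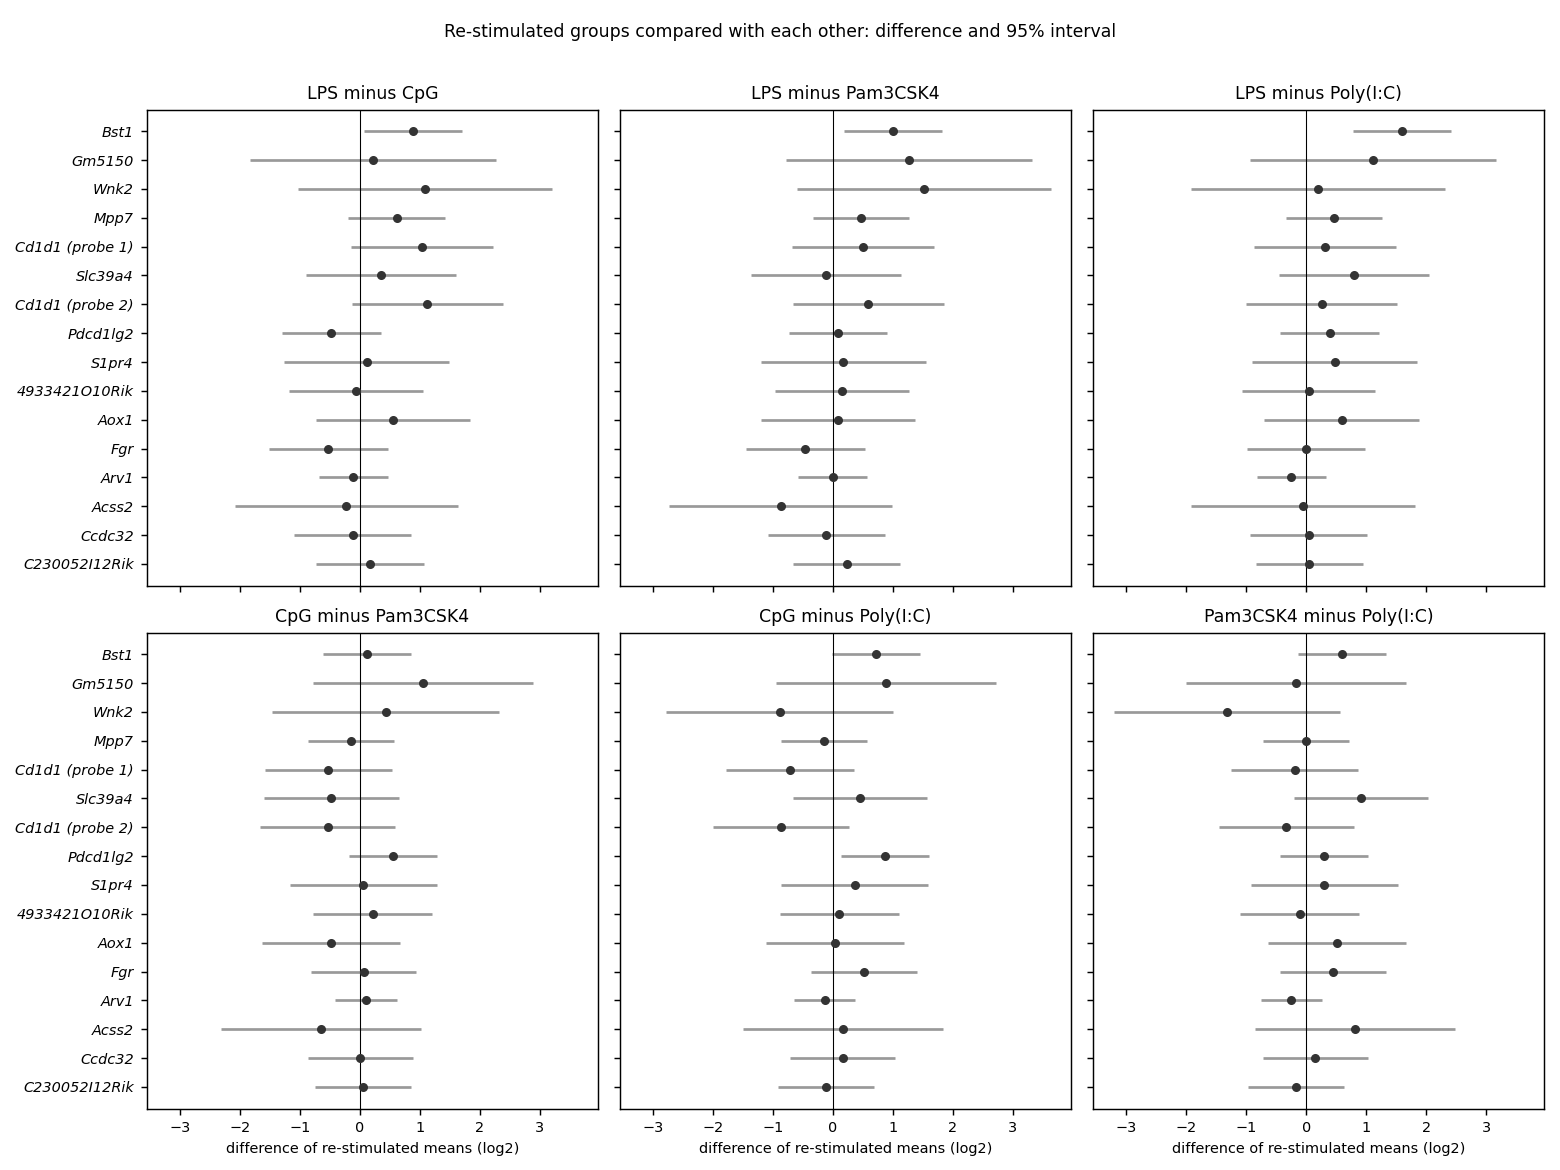
Difference of re-stimulated group means (log2, horizontal axis, points) with 95% intervals (bars) for the 16 member probes in the 6 ligand pairs. The Bst1 intervals for LPS against the other ligands lie above 0; the intervals of Gm5150, Wnk2 and Acss2 are the widest.

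Lists of genes around the members were counted in the same fit, re-stimulated against naïve cells. No member belongs to any of them. Over all probes, 16.4% passed with LPS, 18.8% with CpG, 15.0% with Pam3CSK4 and 18.5% with Poly(I:C), in both directions together. Counts below are given in that order of ligands. Of 18 genes of the acute TLR response, 15, 18, 13 and 14 were higher. Among them were Il6, Il1b and Ptgs2, which make cytokines and prostaglandins. The list's median difference was 4.88, 6.41, 3.80 and 4.09 log2 units. Rsad2, an interferon-induced gene, was lower with Pam3CSK4. With arrays scaled to a common median in place of quantile normalization, 0 genes of the list were lower with Pam3CSK4. Of 18 acute phase and secreted defence genes, 14, 12, 9 and 12 were higher and 0 lower, among them Saa3 and Cfb.

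Of 22 genes of lipid handling and lysosomes tested, 6, 12, 14 and 7 were lower, among them Trem2, Lpl and Lipa, and 1 was higher, Nr1h3 with Poly(I:C). The difference for Trem2, a lipid receptor of macrophages, was -2.12, -3.15, -2.60 and -2.12 log2 units. Arrays were also scaled to a common median in place of quantile normalization, which moves the median of all probes up by 0.45 to 0.64. The counts were then 1, 2, 2 and 1 lower and 1, 2, 2 and 1 higher, so the balance toward lower was lost. Of 20 genes of the integrated stress response, 3, 2, 2 and 9 were higher and 0, 1, 1 and 1 lower. Nupr1, a stress-induced chromatin protein, and Slc7a11, a cystine transporter, were higher with all 4 ligands. With median scaling 8, 7, 7 and 15 of the 20 were higher. Of 18 genes of alternative activation tested, 2, 5, 4 and 2 were higher and 5, 6, 5 and 9 lower. With median scaling the counts were 5, 5, 5 and 2 higher and 2, 3, 3 and 5 lower, so the balance turned with LPS, CpG and Pam3CSK4. Of 21 extracellular matrix genes tested, 7, 8, 6 and 7 were higher and 4, 4, 5 and 3 lower. Median scaling gave 8, 10, 9 and 7 higher and 1, 3, 3 and 3 lower for this list. Of 10 macrophage identity genes, 1 was higher with each ligand (Cd14) and 2, 3, 3 and 4 were lower, among them Mertk, a receptor for apoptotic cells. With median scaling the balance turned, with 3, 3, 3 and 2 higher and 0, 0, 1 and 0 lower.

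Markers of other cells were read beside the members. Of 7 fibroblast markers tested, 2, 3, 4 and 2 were higher and 0 lower: Pdgfrb and Dcn with all 4 ligands, Lum with CpG and Pam3CSK4, and Thy1 with Pam3CSK4. The summed level of the 12 fibroblast markers lay between 8.10 and 9.28 on naïve arrays and between 8.56 and 9.98 on re-stimulated ones, while Col6a3 and Pdgfra were not well above background on any array. Pdgfrb, a growth factor receptor, was higher by 4.40, 3.90, 3.16 and 1.77 log2 units. Col1a2, a collagen chain, did not pass in any of the 4 comparisons. The rest of the 12 listed markers were detected on too few arrays to be tested, so the counts leave them out. Among those was Col1a1, another collagen chain, well above background on 1 of 3 naïve arrays. Its mean was 4.48 in naïve cells (SD 2.27) and lower after re-stimulation, at 3.18, 2.87, 2.22 and 4.03. Of 10 neutrophil markers 0 were higher and 1 was lower (Csf3r) with each ligand, and their summed level lay between 15.58 and 15.93 on naïve arrays and between 14.67 and 15.63 on re-stimulated ones. Of 8 T, B and NK cell and 5 mast cell and basophil markers tested, 0 passed. Of 5 dendritic cell markers tested, 1, 1, 0 and 1 were higher (Zbtb46) and 1, 1, 1 and 0 lower (Siglech), with a summed level of the 10 listed markers of 16.23 to 16.35 on naïve and 14.97 to 16.07 on re-stimulated arrays. Of 3 erythroid and megakaryocyte markers 1 was lower with each ligand (Epor), and of 5 osteoclast markers 0, 2, 1 and 0 were lower. These calls of lower markers depended on the scaling. With median scaling 0 neutrophil, 0 dendritic cell and 0 osteoclast markers were lower with any ligand, 2 osteoclast markers were higher with CpG and with Pam3CSK4, and the erythroid and megakaryocyte list had 0, 0, 1 and 1 lower and 1 higher with Pam3CSK4. The fibroblast markers then had 2, 3, 3 and 2 higher, and 1 T, B and NK cell marker was higher with Pam3CSK4. The part of such cells in the members' rise was not tested.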

How the data were processed

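RNA from 27 cultures was labelled with Cy3 and hybridized to Agilent mouse 8 × 60K arrays. The authors deposited scanner intensity files (Feature Extraction 10.7.3.1, mm9 positions), not normalized, and a log2 table of 25 arrays, made by the authors with RMA background correction and quantile normalization. The files also hold flags, such as well above background, which the authors deposited as scanner output. The rule was applied to the deposited log2 table. Printed levels and fits use values made again from median signal minus median background, with RMA correction (16384 density points) and quantile normalization over 25 arrays. Their median absolute difference to the deposited table was 0.033, and the largest in members 0.095. All 16 member probes meet the rule in both. 0 columns of the table were unmapped.

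A symbol is a name in the array file that is no accession, coordinate or clone name. All 15 member genes matched RefSeq, and 10 have a promoter in the table of GRCm38.p6. Tests used limma 3.58.1 in R 4.3.3 with Python 3 scripts for description. The fit held naïve and 4 re-stimulated groups (14 arrays, 9 residual degrees of freedom) without a block, over the 28876 probes that 2 or more arrays of some group detected above background, with Benjamini-Hochberg adjustment. Where a gene has several probes, lists use the brightest. On simulated data for LPS against CpG with 28876 probes, 28% of changes of 1 log2 unit and 60% of those of 2 were recovered, with 7 false calls. Same-numbered arrays share a slide, and the correlation of their deviations from the group means lay between -0.057 and 0.653, over 0.1 for every pair without LPS, which has 2 pairs. Named genes are the 12 member genes with the largest mean rise, those called between ligands and those in a list. The number of arrays limits precision, and p-values measure the spread between cultures. Alternatives were other values, background correction, scaling, detection filters, sample sets, thresholds, each array left out and the replicate block. The members and lists were chosen with earlier results of these data known.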

Additional observations from a re-analysis of the deposited data

Results flagged for a closer look

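Beside the members, 8 probes without a gene symbol met every other condition of the rule, in data outside the comparisons above. Their mean rise lay between 1.17 and 1.96, and 5 of the 8 are named by a long noncoding transcript region. One lies 43 bases from the Gm5150 probe. One carries the name C79777, which has the form of an accession and is not in the RefSeq table, and would be a further member if read as a symbol. They were flagged because they show a signal in probes not used above.

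The LPS re-stimulated array that failed quality control was not used by the rule. Normalized with all 27 arrays, 5 of 16 member probes were at least 1 above the naïve mean on it (Bst1 by 1.89, Gm5150 by 1.19, Wnk2 by 2.36 and the Cd1d1 probes by 2.28 and 1.76), against 12.3% of all probes tested. The 16 differences ran from -2.95 to 2.36, and 92.4% of probes were well above background on that array. On the left-out Pam3CSK4 acute array, with 99.9% of probes well above background, 1 of 16 probes was within 1.5-fold of the naïve mean.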

How the results depend on the processing

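The list of members depends on its settings more than on any 1 gene. The rule gave 16 probes with the deposited values and with those made again, 14 with normexp (4 of them the same), 20 without the detection filter and 17 with all 27 arrays counted for detection. It gave 78 with median scaling (7 the same), 5 with all 27 arrays (2 the same), 43 with a rise of at least 0.8, 6 with a rise of at least 1.2 and 6 with acute cells within 0.4. Leaving out 1 array gave 10 (without Pam3CSK4 acute replicate 1) to 68 (without Poly(I:C) acute replicate 2) probes, 26, 27 and 13 without naïve replicates 1, 2 and 3, of which 9, 9 and 4 were among the 16. Median scaling moved the median difference of all probes from naïve to 0.61, 0.61, 0.64 and 0.45 for LPS, CpG, Pam3CSK4 and Poly(I:C), and the members' median to 1.99, 1.96, 2.02 and 1.76. It raised the share of higher calls from 50.7%, 50.5%, 48.8% and 49.9% to 84.5%, 84.5%, 86.2% and 82.8%. Between LPS and CpG it moved the higher calls from 1 of 2 to 5 of 22. With normexp the mean rise lay between 0.38 (S1pr4) and 2.03 (Bst1) and was under 1 for 6 probes. The cause was not tested.

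Between ligands, 0 members were called, and 1 (Bst1, LPS against Poly(I:C)) with normexp (difference 1.58, adjusted p 0.0381), with all 9 groups in 1 fit (1.60, 0.0254) and with the replicate block (1.77, 0.0452). Leaving out 1 array gave 0 to 1, with the call without Pam3CSK4 re-stimulated replicate 2 (1.60, 0.0456) and without Poly(I:C) re-stimulated replicate 3 (1.80, 0.0409). Over the other alternatives its adjusted p lay up to 0.593. List genes called against naïve numbered 65, 81, 72 and 75. With only the 2 groups compared they were 47 for Pam3CSK4 and 49 for Poly(I:C), and with all 27 arrays 45 for Pam3CSK4. Leaving out 1 array gave 39 to 76, 71 to 92, 53 to 83 and 61 to 86, the lowest without LPS re-stimulated replicate 2. The replicate block gave 78, 89, 92 and 86. No other call of a member changed with it.

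Over all alternatives, the probes called against naïve were 981 to 5649 with LPS (4732 as reported), 1929 to 6787 with CpG (5427), 1327 to 5944 with Pam3CSK4 (4337) and 2287 to 6619 with Poly(I:C) (5351). Between ligands the ranges were 0 to 119 (LPS and CpG, 2 as reported), 5 to 595 (LPS and Pam3CSK4, 285), 7 to 883 (LPS and Poly(I:C), 278), 0 to 142 (CpG and Pam3CSK4, 70), 413 to 4137 (CpG and Poly(I:C), 1615) and 1076 to 4758 (Pam3CSK4 and Poly(I:C), 2562). S1pr4 and 4933421O10Rik lie close to background, which limits what their levels show.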
